A study of Oryzias latipes with 4 samples.

Results

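The 8708 features described here are rows of a medaka transcript table for which a BLAST search gave no hit, although their locus overlaps at least 1 row that has one. The rule that chose them used annotation and position, out of 93896 rows in all, of which 52142 had a hit. It was set with earlier results of these data known. A further 33044 rows without a hit overlapped no row with one, and 2 features were excluded by name. Each overlapping row with a hit is called a partner below, and where several overlapped the same member the one that shared the most bases was used.

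Transcript models without a match often lie on or beside known genes. Such a model can be an untranslated region or an alternative end of the gene, an RNA read from the opposite strand, a transcript inside an intron, or a rival model of the gene itself. The table gives no strand for the rows, so these kinds cannot be told apart by orientation. Overlapping models can also share reads.

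RNA was measured in tissue that combined the pituitary, the hypothalamus and the lower telencephalon of female medaka (Oryzias latipes), a teleost that breeds under long days. In the long-day group (LD) fish held under short days had been moved to long days 16 h before collection. In the short-day group (SD) fish had stayed under short days. Each group had 2 libraries, and 6 fish were sampled per condition. The labels do not say how fish were assigned to libraries, so a p-value reflects how far the libraries differ, in part perhaps for technical reasons. Fish came from a local dealer, and the labels name no strain, age or genotype.

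The block matched its label. All 10 pituitary markers and all 7 neuronal markers reached 1 FPKM (fragments scaled by feature length and library size). Summed pituitary markers stood at 2261 and 2068 FPKM in LD 1 and LD 2, against 3162 and 3705 in SD 1 and SD 2, and summed haemoglobin markers at 7287 and 5480.5, against 4576 and 6471. The part of either in the results below was not tested. In bulk tissue, fewer cells of a type and less RNA per cell cannot be told apart. The pituitary sum did not hold for each of its markers. Somatotropin was at 263 and 274 FPKM in LD, against 914 and 866 in SD, and somatolactin at 60.7 and 77.7, against 103 and 141. The groups overlapped for fshb (9.35 and 8.97 in LD, 8.19 and 12.7 in SD). They also overlapped for prl (3.36 and 0.842 in LD, 1.91 and 0.0648 in SD). Summed neuronal markers stood at 2108 and 2099 FPKM in LD and 2004 and 2060.2 in SD, and astroglial ones at 2079 and 1869 in LD and 2032 and 2015 in SD. Muscle and ovary markers summed to 5.65 to 18.2 FPKM in every library and eye markers to 22.3 to 25.3. In each of these lists 1 marker reached 1 FPKM. The 5 microglial entries were not matched by symbol.

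The partners of 6928 members (79.6%) had a gene name that could be used, because the location of the BLAST hit overlapped the row. The median member shared 1644.5 bases of locus with its partner, and 433 members overlapped more than 1 row with a hit. By position, 3480 members lay wholly inside the partner's locus, 716 spanned it and 4512 overlapped it in part. The least overlap was 1 base, for MEDAKA068991, which was listed at 0 FPKM. Just outside the rule, MEDAKA001398 abutted a row with a hit without sharing a base and had a mean of 0.0125 FPKM. In all, 23 members shared 10 bases or fewer.

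Few members carried signal. Averaged over the 4 libraries, 1 FPKM or more was reached by 488 of the 8708 members (5.6%), against 40.7% of the rows with a hit and 3.37% of the rows without a hit that overlapped none. Above 0 in at least 1 library were 2898 members (33.3%), above 0 in all 4 were 1069, and 393 reached 1 FPKM in every library. Members at 1 FPKM or more numbered 488 and 483 in LD 1 and LD 2, and 495 and 491 in SD 1 and SD 2. Members above 0 numbered 1801 and 1780 in the LD libraries, against 1790 and 2009 in the SD libraries. SD 2 also had the most rows above 0 in the whole table, 39789, against 37623 and 37823 in the LD libraries and 37506 in SD 1. The depth of the libraries is unknown, since the values did not settle the worth of 1 fragment.

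Detection differed with the place of the member in the gene. Coding segments of the partner's hit were read from the deposited table, and each member's locus was placed against them. A locus runs from the first to the last base of a feature, introns included, and 7760 of the 8708 members consist of several blocks. Here and below, a member is said to reach a coding segment where its locus does. Exons of members were not compared with the segments, so such a member need not hold coding sequence. Among members outside the coding part, 130 of 1297 on its 3' side (10%) and 133 of 1394 on its 5' side (9.54%) reached a mean of 1 FPKM. Of members whose locus reached a coding segment, 165 of 1994 did so (8.27%). Within an intron of the coding part the count was 27 of 2243 (1.2%), and over partners without a usable name it was 33 of 1780 (1.85%). Members that spanned the partner and reached a coding segment had the highest share of the classes examined, with 57 of 445 (12.8%). These shares are descriptions, and members of a class differ in length as well: the median length of members at 1 FPKM or more was 3413 bases for those that spanned the partner and 366.5 for those inside it.

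**Figure D1:**
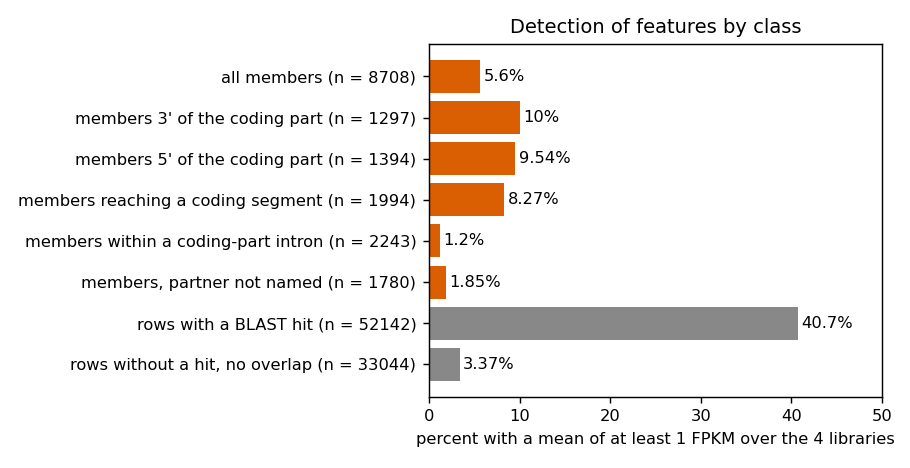
The bars give the percent of features in each class that averaged 1 FPKM or more, with the number of features in the class in brackets. Members within an intron of the coding part reached 1.2% and those on either side of the coding part 9.54% to 10%, while rows with a BLAST hit reached 40.7%.

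Most members with signal had a partner row below 1 FPKM, while the partner's gene as a whole was mostly above it. Of the 488 members tested (a mean of at least 1 FPKM), 113 had a partner that was tested as well (23.2%), and 199 had a partner listed at 0 in all 4 libraries. Among the 8220 members below 1 FPKM, the partner was tested for 3241 (39.4%). Over all rows of the partner's gene, 1 FPKM or more was reached for 354 of the 455 tested members with a named partner (77.8%) and for 5471 of 6473 of the others (84.5%). The nearest row with a hit that did not overlap was tested for 309 of the 488 tested members (63.3%) and for 2958 of the others (36.0%). Counting every overlapping row with a hit rather than the partner alone gave 122 of 488 (25%). Where both member and partner were tested, the partner was the higher of the pair in 80 of 113 and at least 10 times higher in 32. The median level of the pair was 2.57 FPKM for members and 10.8 for partners. Mean levels of member and partner on log2(FPKM + 1) had a Pearson r of -0.12 and a Spearman coefficient of -0.16 across the 113 pairs, which share the same libraries and may share reads.

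**Figure D2:**
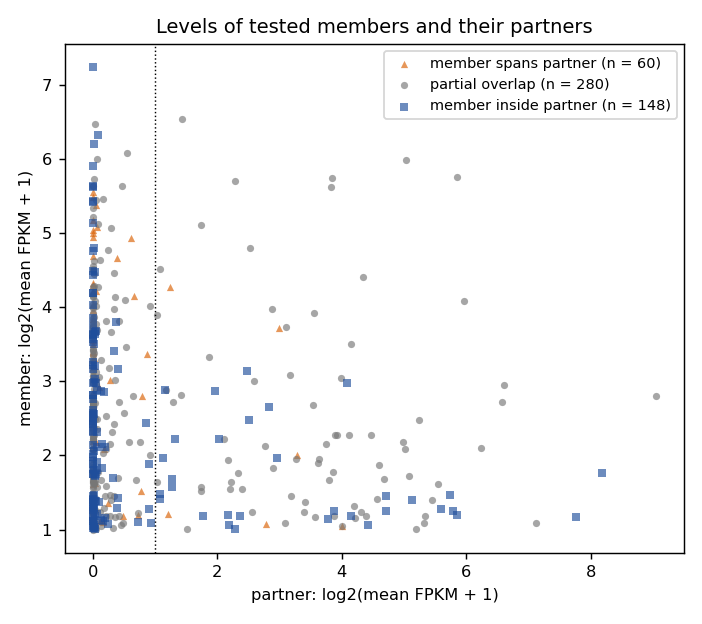
Each point is 1 of 488 tested members, with the mean level of the member on the y axis and that of its partner on the x axis, both as log2(mean FPKM + 1). The dotted line marks 1 FPKM for the partner, and 113 members lie to its right.

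The 8 most abundant members averaged 62 to 149.6 FPKM. MEDAKA025397, a 637-base feature on chromosome 19 at 14228882 to 14234331, stood at 168 and 157 FPKM in LD, against 140.3 and 133 in SD. It lies inside a row of ttyh2, which encodes a tweety-family membrane protein, 1160 bases from the coding part on its 5' side, and that row was listed at 0. Over all its rows ttyh2 averaged 25.1 FPKM, below the member. MEDAKA011299, on chromosome 11 at 14365424 to 14366334, overlaps mturn, which encodes maturin, a regulator of neural differentiation known from Xenopus. It stood at 97 and 85 FPKM in LD and at 100.2 and 83.8 in SD, so the groups overlapped. Over all its rows mturn averaged 127 FPKM, above the member.

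MEDAKA027109 lies 274 bases beyond the 3' end of the coding part of a beta spectrin gene (LOC101159770), a component of the membrane skeleton. It had 97.2 and 89.5 FPKM in LD, against 83.3 and 79.7 in SD, and the rows of that gene together averaged 90.5 FPKM. MEDAKA050921 lies 691 bases beyond the coding part of ap2a1, which encodes a subunit of the clathrin adaptor AP-2, at 74.5 and 78.8 FPKM in LD and 71.2 and 64.9 in SD, against a mean of 90.6 for ap2a1. Both members were thus at a level close to that of the gene on whose 3' side they lie, summed over 9 and 4 rows. The partner rows themselves were at 0.0789 FPKM or less in every library. MEDAKA027109 overlapped 2 rows with a hit. Whether these members belong to the genes was not tested. MEDAKA055948, 616 bases beyond the coding part of banf1, a chromatin-binding protein of the nuclear envelope, stood at 68.6 and 63 FPKM in LD and 59.4 and 57.1 in SD, against a mean of 31.6 for banf1.

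MEDAKA079196 reaches coding segments of a neurexin-1a gene (LOC101167491), a presynaptic adhesion protein, and had 57.2 and 65 FPKM in LD and 64.5 and 64.4 in SD. The rows of that gene together averaged 234 FPKM. MEDAKA064350 lies inside a row without a usable name and had 82.6 and 79.5 FPKM in LD and 70.5 and 81.5 in SD. For both, the 2 groups overlapped. The remaining member of the 8, MEDAKA043517, lies 1086 bases beyond the coding part of oip5, which encodes the centromere protein Mis18-beta. It was at 68.5 and 68.1 FPKM in LD and 66.8 and 63.7 in SD, while oip5 itself averaged 0.469 FPKM.

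That contrast recurred. Of 124 members at a mean of 10 FPKM or more, 119 had a named partner, and for 43 of these the partner's gene was under 1 FPKM over all its rows. The level of 10 FPKM was chosen after the values were seen. Several of the 43 overlapped more than 1 row with a hit, and only the gene of the row sharing the most bases was counted here. Of the 43 members, 37 had a locus that reached a coding segment, 23 spanned the partner row and 40 were longer than it. Their median length was 4081 bases, against 783 for the partner rows. For 19 of the genes every row was listed at 0 in all 4 libraries, and 25 of the genes had a single row. The gene name of a partner rests on an aligned stretch of 28 to 878 bases (median 241), so some names rest on short matches. Levels of the 43 members ran from 10.3 to 66.8 FPKM (median 17.6), and 41 were at 10 FPKM or more in all 4 libraries.

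MEDAKA024275, on chromosome 16 at 18778386 to 18794619 and 8245 bases long, spans a 336-base row of rusc1, which encodes a RUN and SH3 domain protein. It stood at 43.5 and 45.6 FPKM in LD and 43.7 and 42.5 in SD, while rusc1 was listed at 0 throughout. MEDAKA066681 spans ubtf, a transcription factor of ribosomal RNA genes, at 39.6 and 35.1 FPKM in LD and 46.6 and 40.6 in SD, against a mean of 0.0326 for ubtf. The feature over ubtf runs from 4604725 to 4613049 on chromosome 8 and is 4620 bases long. MEDAKA010108 spans a row of cyld, a deubiquitinating enzyme of NF-kappaB signalling, and cyld was listed at 0. This member stood at 32.7 and 31 FPKM in LD and 32.4 and 31.9 in SD. Only the partner row is named here and below, and what is spanned is that row. MEDAKA024275 overlapped 3 rows with a hit and MEDAKA010108 overlapped 2.

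Other genes listed near 0 under such a member belonged to several cell functions. MEDAKA075951 spans the bromodomain gene brd8 (LOC101163838), a chromatin reader, at 48.1 and 47.7 FPKM in LD and 42.4 and 45.9 in SD. MEDAKA030956 spans etfdh, a mitochondrial enzyme that passes electrons to ubiquinone, at 23.5 and 23.7 FPKM in LD and 26.4 and 26.3 in SD, so both LD libraries lay below both SD libraries. MEDAKA080987 spans a row of a phosphodiesterase 4B gene (LOC101156228), which degrades cyclic AMP. Its values were 17 and 17.7 FPKM in LD and 18.3 and 17.3 in SD. MEDAKA075951, MEDAKA030956 and MEDAKA080987 each overlapped 2 rows with a hit, so their signal cannot be tied to the named gene alone. Further genes of the 43 were dek and nrip1 (chromatin and transcription), nup98 and ipo8 (nuclear pore and import), slitrk5 (synaptic adhesion), map4k5 (a kinase) and ppp1r3c, a glycogen-targeting subunit of a protein phosphatase. The same limit holds for the members over nrip1, nup98, ipo8 and map4k5, which overlapped 2, 3, 4 and 2 rows with a hit. ppp1r3c was listed at 0, and MEDAKA012123, which reaches its coding segments, stood at 11.8 and 11.3 FPKM in LD and 10.2 and 11.7 in SD.

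**Figure D3:**
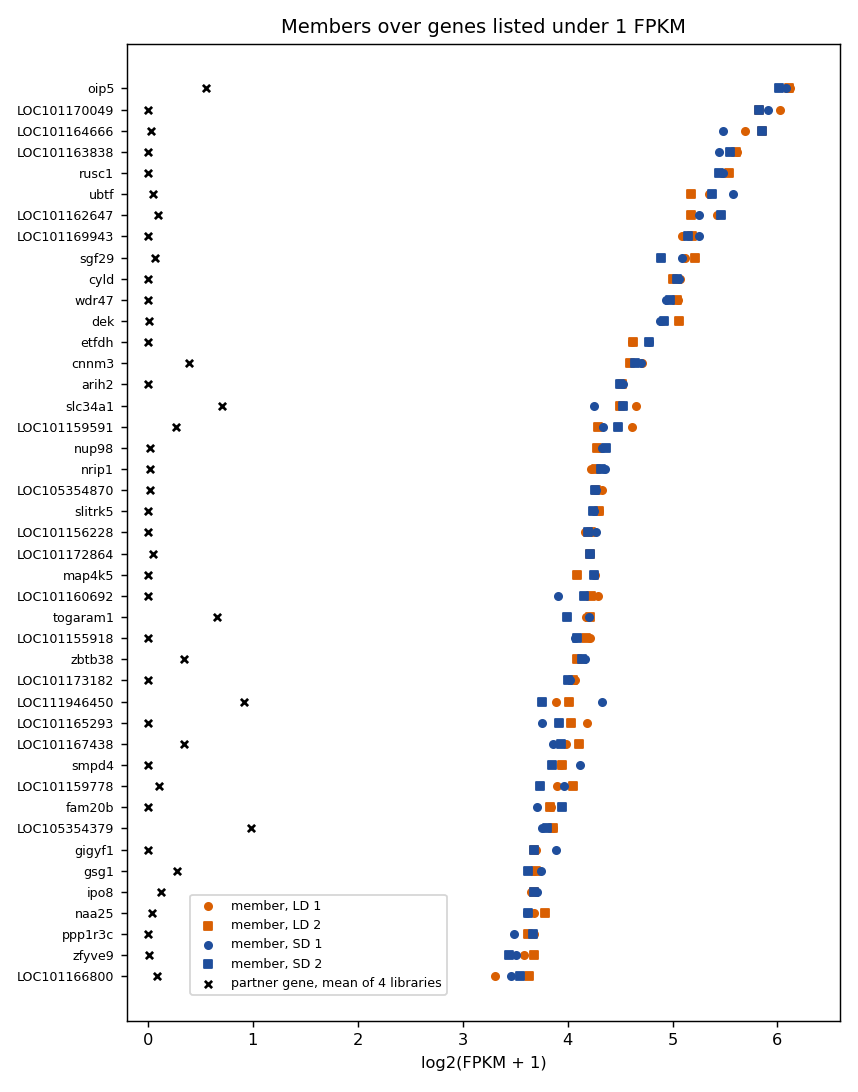
Each line is 1 of the 43 members at a mean of 10 FPKM or more whose partner gene, named at the left, was under 1 FPKM over all its rows. Orange marks are the LD libraries, blue marks the SD libraries and crosses the mean of the partner gene, all as log2(FPKM + 1).

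The log2 changes of these 43 members, LD minus SD on log2(FPKM + 1), lay between -0.22 and 0.27. Rounded to 2 decimals, 24 were above 0, 17 below and 2 at 0. The groups did not overlap for 19 of the 43 (44.2%), against 37.2% of all tested features. The widest change was that of MEDAKA055057, which reaches coding segments of a gene described as ETS translocation variant 5 (LOC101165293), a transcription factor, at 17.2 and 15.4 FPKM in LD and 12.5 and 14.1 in SD. It was the only one of them with an unadjusted p under 0.05 (0.0432), and it did not pass the adjusted threshold (limma adjusted p = 0.796).

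LD and SD were compared by limma on all 22810 rows with a mean of at least 1 FPKM, with p-values adjusted over all of them. None of the 488 tested members passed the threshold of 0.05, against 7 of all tested features (0.0307%), 3 higher in LD (0.0132%) and 4 lower (0.0175%). At an unadjusted p under 0.05 there were 33 members (6.76%), 16 higher (3.28%) and 17 lower (3.48%) in LD, against 6.08% of all features, with 2.39% higher and 3.69% lower. The 2 groups did not overlap for 173 members (35.5%), of which 91 were higher in LD (18.6%) and 82 lower (16.8%), against 37.2% of all features, with 15.9% higher and 21.3% lower. Both shares of the members were near those of the whole table. The median log2 change of the members was 0.01, with 252 above 0 and 236 below, and over all tested features it was -0.02. Between 1 LD and 1 SD library the median absolute difference was 0.152 to 0.191, against 0.175 between the LD libraries and 0.171 between the SD libraries. When SD 2 was left out, 1 member passed (MEDAKA017472, described below), and a fit without a mean-variance trend called MEDAKA062131.

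MEDAKA062131 had the smallest p among members with higher values in LD. It stood at 3.21 and 3.59 FPKM in LD and at 0 in each SD library, and no fold is given against a group at 0. It is 303 bases long and lies on chromosome 8 at 9774384 to 9786660, 187 bases from the coding part of LOC101169113 on its 5' side. The partner row was listed at 0 in every library, whereas the gene as a whole averaged 37.2 FPKM. The log2 change was 2.14 with a standard error of 0.18 (limma adjusted p = 0.0938). Under the alternatives the limma adjusted p ran from 0.0268 without a trend to 0.517 with no filter. MEDAKA062131 passed the filter, with a mean of 1.7 FPKM, through its LD values alone, and the SD values of 0 added no spread.

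The other 7 members of that rank did not pass either, and for each of the 8 the limma adjusted p was at least 0.0938. MEDAKA009720, upstream of the coding part of the receptor-type phosphatase gene ptpro, stood at 39.3 and 42 FPKM in LD, against 20.5 and 28.2 in SD, a log2 change of 0.73. MEDAKA050042, 5328 bases long, reaches coding segments of dbn1, which encodes the actin-binding protein drebrin of dendritic spines, and had 53.1 and 53.1 FPKM in LD, against 43.3 and 45.2 in SD. MEDAKA078627, on the 3' side of a gene for the kinase TAO2 (LOC101155230), was at 28.2 and 23.5 FPKM in LD, against 19.1 and 14.4 in SD. All members of this rank were chosen among those whose groups did not overlap, so that separation is no result. The partner rows of these 3 were at 0 or below 1 FPKM in every library.

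Lower in level were MEDAKA044913, inside a row of a gene for the adhesion protein tensin-1 (LOC101155555), at 2.31 and 2.58 FPKM in LD, against 0.881 and 1.29 in SD, and MEDAKA069659, over a gene for the histone variant H3.3 (LOC110014793). The feature over H3.3 had 1.77 and 3.64 FPKM in LD, against 0.87 and 0.714 in SD, and its log2 change was 1, and 0.63 without LD 2. MEDAKA069659 passed the filter, with a mean of 1.75 FPKM, through its LD values alone. MEDAKA036374 overlaps an intron of arhgef4, at 28.4 and 28 FPKM in LD and 24.4 and 23.9 in SD. With MEDAKA025397 over ttyh2 (log2 change 0.25, limma adjusted p = 0.796), given above, these make up the 8.

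Among members with lower values in LD, MEDAKA060523 had the smallest p. Its locus, introns included, reaches coding segments of a gamma-adducin gene (LOC101164133), whose protein joins spectrin to actin. The member stood at 0.144 and 0.361 FPKM in LD, against 2.14 and 1.9 in SD (log2 change -1.27, limma adjusted p = 0.546). The partner row was at 0, and the gene averaged 56.1 FPKM over its rows. MEDAKA060523 passed the filter, with a mean of 1.13 FPKM, through its SD values alone. MEDAKA007504 is 6220 bases long, spans chromosome 4 from 515343 to 533941 and covers a row of pdgfra, the receptor tyrosine kinase that marks oligodendrocyte precursors in mammals. It had 6.17 and 7.9 FPKM in LD, against 11.9 and 12.3 in SD, a log2 change of -0.71 with a standard error of 0.13 (limma adjusted p = 0.649). The single pdgfra row was listed at 0 in all 4 libraries. Without a strand, whether MEDAKA007504 reports RNA of pdgfra or another transcript at that locus is unknown. Summed oligodendrocyte markers stood at 182 and 114 FPKM in LD and 128 and 119 in SD. Their part in the values of MEDAKA007504 was not tested.

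MEDAKA034798, inside a row without a usable name whose hit is described as small integral membrane protein 13, stood at 8.74 and 8.08 FPKM in LD, against 12.8 and 12.4 in SD. MEDAKA047744, over the ion-transport kinase gene wnk3, was at 3.85 and 3.71 FPKM in LD, against 5.52 and 5.77 in SD. The locus of MEDAKA035291 reaches coding segments of a gene for the sine oculis-binding protein (LOC101172043), a nuclear cofactor. This member was at 3.99 and 4.47 FPKM in LD, against 5.45 and 6.46 in SD. The last 2 reach coding segments of genes whose partner rows were listed at 0. MEDAKA048872, MEDAKA085678 and MEDAKA073943, beside genes for heterogeneous nuclear ribonucleoprotein D0-like, thrombospondin-4-B and the Rap GTPase-activating protein sipa1l2, had log2 changes of -0.39, -0.40 and -0.39. For these 8 members the limma adjusted p lay between 0.546 and 0.796. They too were chosen among members whose groups did not overlap, so that separation is no result.

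**Figure D4:**
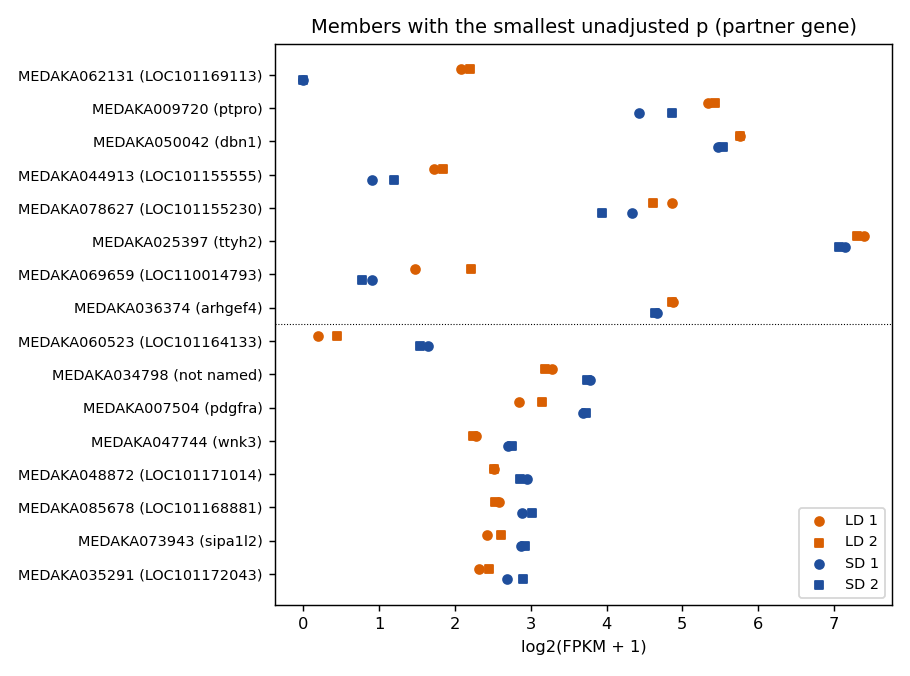
FPKM on a log2(FPKM + 1) axis for the 8 members with the smallest unadjusted p on each side, higher in LD above the dotted line and lower in LD below it, with the partner gene in brackets. Orange marks are LD 1 and LD 2, blue marks SD 1 and SD 2, and none of the 16 passed the adjusted threshold.

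A value of 0 was not always shared by replicates. In 4 tested members (0.82%, against 0.171% of all tested features) at least 1 library was listed at 0 while another was at 10 FPKM or more. MEDAKA017472, over ndst2, an enzyme of heparan sulfate synthesis, stood at 28.2 and 31.2 FPKM in LD and at 0 and 27 in SD. It is the member that passed without SD 2 (log2 change 4.94, limma adjusted p = 0.0192), where the lone SD 1 library was assumed to vary like the LD libraries. MEDAKA074661, over tada2a, had 14.1 and 10.5 FPKM in LD and 10.6 and 0 in SD, and MEDAKA069278, over chd1, was near 0 in all libraries except SD 2, at 11.5 FPKM. These 3 features were chosen after their values were seen.

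Changes of members were next set against those of their partners. In 113 pairs with both rows tested, 61 changed in the same direction (54.0%): 30 were both higher in LD and 31 both lower. In 21 pairs the member was higher and the partner lower, and in 31 the reverse. The log2 changes had a Pearson r of -0.03 and a Spearman coefficient of 0.06 across these pairs. Both member and partner separated LD from SD in 14 pairs, 7 in the same direction and 7 in opposite ones. For the nearest rows that did not overlap these counts were 25 and 13, and for overlapping rows with a hit within a gene 22 and 11. For the nearest row with a hit that did not overlap, 173 of 309 pairs had the same direction (56.0%, r = 0.09). Overlapping rows that both have a hit gave 56.7% of 270 pairs within a gene (r = 0.14) and 52.3% of 1182 pairs between genes (r = 0.04). The share for members and partners lay within the range of the other neighbouring rows, 52.3% to 56.7%. Their Pearson r lay below the 0.04 to 0.14 of those rows. Over contrasts of single libraries, however, the Pearson r of members and partners had a standard deviation of 0.0827. By Spearman coefficient, members and partners (0.06) lay within the range of those rows, 0.04 to 0.17. No test was made of these differences.

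**Figure D5:**
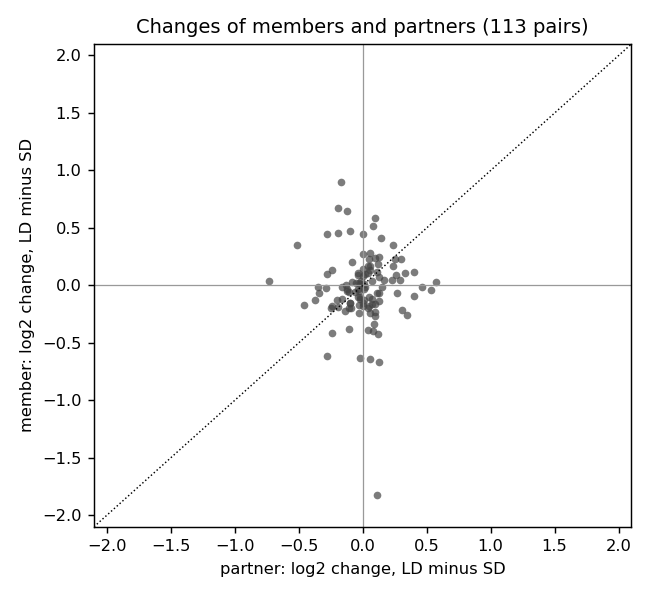
Each point is 1 of 113 pairs, with the log2 change (LD minus SD, log2(FPKM + 1) scale) of the partner on the x axis and of the member on the y axis. The dotted line marks equal changes, and 61 of the points lie in the quadrants of equal sign.

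Setting members against the sum of all rows of the partner's gene gave 354 pairs, of which 57.9% shared a direction (r = 0.11), a comparison added after the data were seen. In the 243 of these whose partner row was itself below 1 FPKM, 58.8% did so (r = 0.15). Agreement was lower in smaller sets with more of the member's locus covered, introns included. With at least 50% of the member covered, 23 of 55 pairs shared a direction (41.8%, r = -0.19). With the member wholly inside a row with a hit, 10 of 32 did so (31.2%, r = -0.34). Members inside a row also meet the 50% rule, so these sets are not independent. No test was made of these shares.

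The difference between the change of a member and that of its partner was tested directly, as an interaction on the log2 scale over all 113 pairs. None passed (limma adjusted p of 0.746 or more), and 5 pairs had an unadjusted p under 0.05 (4.42%). On the log2(FPKM + 1) scale the 95% interval of the difference lay within 2-fold for 72 pairs and reached past it for 41. For low members this scale understates differences in FPKM itself, so the 72 pairs are not bounded at 2-fold in FPKM. The most abundant of the 8 pairs chosen by rank was MEDAKA030996, 1083 bases beyond the coding part of a gene described as a sodium/iodide cotransporter (LOC101161389), a membrane carrier. The member stood at 54.2 and 52.8 FPKM in LD and 51.3 and 52.5 in SD, while the partner was at 36.9 and 48.3 in LD, against 73.5 and 68 in SD. Their changes were 0.04 and -0.73, a difference of 0.78 (interval 0.17 to 1.38).

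The other 3 pairs of that direction had a higher change in the member. MEDAKA041637 was at 1.58 and 1.34 FPKM in LD, against 0.808 and 0.768 in SD, over the mannosyltransferase gene dpy19l3 at 6.96 and 6.93 in LD and 8.63 and 7.53 in SD. MEDAKA028808, over lcmt1, which methylates protein phosphatase 2A, was at 1.3 and 2.22 FPKM in LD and 0.705 and 0.766 in SD. MEDAKA055889, inside a row of a lysine demethylase 6B gene (LOC101164833), had 2.64 and 1.38 FPKM in LD and 0 and 1.49 in SD. All 3 members were near 1 FPKM. Their LD means were 1.46, 1.76 and 2.01 FPKM, against SD means of 0.788, 0.735 and 0.744. Each thus passed the filter through its LD values alone. Pairs were ranked within each direction, so the sign of the difference is no result. The difference of MEDAKA028808 was 0.77, and 0.48 without LD 2, and that of MEDAKA055889 was 1.07, and 0.59 without SD 1.

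In the other direction, MEDAKA048872 stood at 4.73 and 4.72 FPKM in LD, against 6.72 and 6.24 in SD, on the 3' side of its partner, the ribonucleoprotein D0-like gene (LOC101171014), which was at 97.4 and 95.1 in LD and 92.9 and 93.8 in SD. Their changes differed by -0.43 (interval -0.86 to 0.00). Member and partner both separated the groups, in opposite directions, but the partner's own change was only 0.04 (limma adjusted p = 0.903). The member was chosen for its separation and the pair for its difference, so neither is a result. MEDAKA006184, over a gene for the macrophage lectin sialoadhesin (LOC101171522), and MEDAKA054839, over the autophagy gene map1lc3c, had differences of -0.80 and -0.54. Without SD 2 the difference of MEDAKA006184 was -0.46. MEDAKA054839 averaged 0.95 FPKM in LD and 1.61 in SD, so it passed the filter through its SD values. MEDAKA014696, over a gene of the tumor necrosis factor receptor family (LOC101161557), was at 3.71 and 0 FPKM in LD and 10.3 and 4.23 in SD, and its difference of -1.94 had an interval from -3.98 to 0.11. Without LD 1 this pair passed (difference -3.07, limma adjusted p = 0.000854), a fit that rests on LD 2, where the member was listed at 0. Without LD 2 the difference was -0.81 (limma adjusted p = 0.53).

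Genes on a list of hormone, clock and photoperiod genes were the partners of 11 members. Of these, 5 were listed at 0 in all libraries, 5 were above 0 with a mean under 1 FPKM, and 1 was tested. MEDAKA003899 lies 1150 bases beyond the coding part of the somatotropin gene (LOC101171460), which encodes growth hormone. The member stood at 0.118 and 0.232 FPKM in LD and 0.301 and 0.108 in SD, while its partner was at 263 and 274 in LD, against 914 and 866 in SD. The groups overlapped for the member and not for the partner. With no filter on low values this pair alone passed among 1963 (difference 1.69, limma adjusted p = 0.0414). At such a member level the pseudocount holds the member's log2 change near 0, so the difference restates the partner's own change of -1.73 and says nothing of the member.

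The tested one of the 11 was MEDAKA069279, on chromosome 12 at 27598126 to 27601553 and 2253 bases long, which reaches coding segments of nfil3, a repressor of clock output genes. It stood at 6.16 and 6.47 FPKM in LD, against 4.83 and 5.97 in SD, with a log2 change of 0.20 (limma adjusted p = 0.816), whereas the nfil3 row averaged 0.00498 FPKM. MEDAKA039062, 106 bases beyond the coding part of a thyrotroph embryonic factor gene (LOC101172818), a clock output regulator, was at 0.738 and 0.73 FPKM in LD, against 1.09 and 1.1 in SD, just under the filter. The members over prolactin (prl), somatolactin (LOC100049402) and pomc were listed at 0.

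Grouped by words in the partner's description, members of no list of 13 held a call. Detection ran from 2.08% of 192 members over immune genes and 2.69% of 1114 over uncharacterized genes to 6.98% of 444 over transcription factor genes, in lists of more than 100 members. Over ion channel and transmitter receptor genes 18 of 290 members were tested, with a median log2 change of 0.02 and 10 above 0. The most abundant of them, MEDAKA024068, was listed for the words of its description but overlaps a gene for an autophagy protein (LOC101170049), at 64.2 and 55.5 FPKM in LD and 59.2 and 55.7 in SD. Over synaptic genes 5 of 103 were tested (median -0.02), the most abundant after MEDAKA079196 being MEDAKA007033 at 44.3 and 43.5 FPKM in LD and 42.4 and 42.1 in SD, on the 3' side of a synapsin-1 gene (LOC101163826). Over transcription factor genes 31 were tested (median -0.04), of which 8 were lower and 2 higher in LD without overlap of the groups, against 21.3% and 15.9% of all tested features. Over kinase and phosphatase genes 33 of 578 were tested (median 0.01), 2 higher and 1 lower at an unadjusted p under 0.05, against 2.39% and 3.69% of all tested features. Over cell adhesion and guidance genes 17 of 353 were tested (median -0.03).

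In the smaller lists, 4 of 35 members over neuropeptide and hormone genes were tested (median 0.08), which here were receptors as well as ligands: MEDAKA006841 reaches coding segments of a neuropeptide Y receptor gene (LOC101167799) and had 4.58 and 4.28 FPKM in LD, against 3.84 and 3.97 in SD. Translation genes had 5 of 63 tested (median -0.04), mitochondrial genes 6 of 120 (median -0.09), RNA processing genes 3 of 76 (median -0.13) and clock and photoperiod genes 1 of 8 (0.20). Immune genes had 4 tested (median 0.19) and uncharacterized genes 30 (median -0.02), and none of 9 members over mobile elements was tested. The list medians stand beside 0.01 for all tested members and -0.02 for all tested features, and lists of a few members are descriptions of those members.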

How the data were processed

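The authors deposited 1 table of FPKM values with 1 column per library, per the file headers, with a locus, a length in bases and the best BLAST hit for each row. The submitters' processing notes list StringTie 1.3.3b and HISAT2 2.0.5, without their settings, and libraries were made with a stranded TruSeq mRNA kit, per the labels' protocols. The genome build and the source of the feature models are not given in the sources used here. Coordinates are those of the deposited table. Gene symbols come from the RefSeq gene table of assembly ASM223467v1, matched by gene identifier.

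Rows were kept as features of their own, without summing. FPKM are not counts, so log2(FPKM + 1) of the 22810 rows with a mean of at least 1 FPKM was tested with limma 3.58.1 in R 4.3.3 (group as the only term, empirical Bayes with a mean-variance trend, two-sided, Benjamini-Hochberg adjustment, threshold 0.05). Fold changes on this scale understate those of low features. The difference between member and partner was tested in the same way over 113 pairs. The scripts were tested on simulated data. In simulated rows with noise at the fitted level, 62.7% of 67 built-in 2-fold changes were called, and 97% of 67 4-fold changes. That simulation gave 184 calls, against 7 in the data, and more calls make the adjusted threshold looser. Its rows were drawn from all tested rows, and members were lower (median 4.02 FPKM, against 8.79 for tested rows with a hit). These shares therefore do not apply to the members. In 113 simulated pairs all 23 built-in differences of 2 log2 units were called, beside 3 false calls. Noise of the simulated pairs was set from all tested rows and was equal for every pair. In the actual pairs the median standard error of the difference was 0.23, and that of MEDAKA014696 was 0.77. The share called in the simulation therefore does not carry over to the less precise pairs. The worth of 1 fragment was sought as the most frequent product of FPKM and length in each library. Between 6.71% and 7.01% of the values above 0 lay below it, so depth was left unknown, no counts were rebuilt and no counting interval is given. Tables were handled with Python 3.11.15, pandas 2.3.3 and scipy 1.17.1, and plots drawn with matplotlib 3.10.9.

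The members and lists were chosen with earlier results of these data known. Named features were the 8 tested members with the smallest p in each direction among those whose groups did not overlap, the 8 most abundant, the 4 pairs in each direction with the smallest p for the difference, and members over listed hormone and clock genes. Examples within the gene lists, and the members over genes under 1 FPKM, were picked with their values in view.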

Additional observations from a re-analysis of the deposited data

How the results depend on the processing

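No tested member was called in the fit as planned. It remained at 0 with every alternative except 2, each with 1 call: the fit without a trend and the fit without SD 2 (range 0 to 1 with 1 library left out). The count over all 22810 features was 7 as planned. It was 1 of 48127 features with no filter and 2 of 17252 with the rows of a gene summed. Over the 22810 features it was 3 with a pseudocount of 0.1, 20 without a trend, 13 with robust variance and 3 to 11 with 1 library left out. With the replicate number as a block it was 1, and 0 members. The numbers give no sign of pairing (correlation of the replicate differences 0.04), so the block is given here only.

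The members numbered 5364 with at least 50% of the member covered, 3480 with the member inside a row with a hit and 3418 with overlap limited to rows at a mean of 1 FPKM or more. Of these 278, 148 and 122 reached a mean of 1 FPKM, against 1069 of all members above 0 in every library and 2898 above 0 in any. Their median log2 change was -0.01 with no filter, 0.04 with median-centred libraries, 0.03 with at least 50% covered, -0.02 over rows at 1 FPKM or more, and 0.00 to 0.02 with 1 library left out. The share of pairs with the same direction was 41.8% with at least 50% covered, 31.2% inside a row with a hit and 51.3% to 57.5% with 1 library left out. The correlation of changes was 0.09 among the 19 pairs at 5 FPKM or more, -0.19 with at least 50% covered, -0.34 inside a row with a hit, 0.11 with the gene total, and -0.14 to 0.02 with 1 library left out. The number of pairs that differed was 1 with no filter (1963 pairs) and 0 to 1 with 1 library left out. The cause of these shifts was not tested. The other overlap rules and the stricter filter also leave smaller sets.

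Among named features, MEDAKA011299 had a log2 change of 0.02 with median-centred libraries and between -0.14 and 0.11 with 1 library left out, MEDAKA064350 between -0.01 and 0.2 and MEDAKA079196 between -0.17 and 0.01, so that each changed sign in at least 1 setting. Overlaps on the same or opposite strands were not run, because the table gives no strand for the members. Depth is unknown, and 2 libraries per group limit what can be shown.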
